A study of Homo sapiens with 10 samples.

Results

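The widest RNA polymerase II (Pol II) peaks of HCT116 cells were described, taken as peaks of at least 3000 bp on chromosomes 1 to 22. The members were chosen by their deposited width alone. This rule took 356 domains out of 91692 autosomal Pol II peaks, which is 0.388% of the peaks and 3.94% of the bases under them (1622 of 41126 kb). HCT116 is an established line of human colorectal carcinoma cells, and its cultures here carried no stated treatment. The series held 10 chromatin immunoprecipitation sequencing libraries of this line, 1 for each target, and 5 peak lists were used: Cdk9, Hexim1, KAP1, Larp7 and total Pol II, for which the antibody was N-20. The libraries for 3 histone marks (H3K27ac, H3K4me1 and H3K4me3), Ser5P Pol II and input DNA were not analysed here. The labels give the cell type as endothelial, whereas Pol II had a peak within 1 kb of the 5′ end of 14 of 17 epithelial marker genes, all but KRT20, VIL1 and LGALS4, and of 6 of 13 endothelial ones. These 6 were FLT1, ENG, ERG, EGFL7, ESAM and CLDN5, and those without were CDH5, VWF, KDR, TEK, TIE1, ROBO4 and EMCN. With 1 library per target no value has a replicate, so no test between conditions was made. Each interval of a share below is an exact (Clopper-Pearson) 95% interval. Those of differences between shares are 95% intervals of another kind, and all intervals cover counting error only. Read depth is unknown for these lists.

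Pol II transcribes protein-coding genes and often pauses just past the 5′ end before it is released into the gene. The kinase Cdk9, with a cyclin, forms P-TEFb, which releases paused Pol II. The 7SK ribonucleoprotein holds P-TEFb inactive: Larp7 binds and stabilises 7SK RNA, and Hexim1 inhibits the kinase. KAP1 (TRIM28) is a chromatin-bound co-regulator that has been linked to delivery of the 7SK complex to promoters. Pol II signal that spreads over a whole gene and past its 3′ end is usual for short, heavily transcribed genes.

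The summit of a domain is the base where the authors' peak caller placed the highest Pol II signal, and examples of the sequence there are given. The windows below are 100 bp of hg19 (GRCh37) centred on the summit of a wide domain from each place along genes, passing over windows that touch an annotated UTR. Capitals mark CG dinucleotides, and each is read 5′ to 3′ along the strand of its gene. They lie at chr1:1268569-1268668 (plus strand, over a coding exon of TAS1R3), chr16:778186-778285 (minus strand, over a coding exon, upstream of CCDC78), chr17:80200220-80200319 (plus strand, within SLC16A3, touching no exon), chr19:50360542-50360641 (plus strand, within PTOV1, over an exon of a non-coding transcript) and chr22:50358450-50358549 (plus strand, between genes).
TAS1R3: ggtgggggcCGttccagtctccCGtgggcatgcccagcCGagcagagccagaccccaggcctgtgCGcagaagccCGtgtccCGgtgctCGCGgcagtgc
CCDC78: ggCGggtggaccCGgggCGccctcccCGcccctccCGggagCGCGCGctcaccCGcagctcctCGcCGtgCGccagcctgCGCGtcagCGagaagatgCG
SLC16A3: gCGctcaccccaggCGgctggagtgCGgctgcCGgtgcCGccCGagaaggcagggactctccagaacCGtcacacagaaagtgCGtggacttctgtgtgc
PTOV1: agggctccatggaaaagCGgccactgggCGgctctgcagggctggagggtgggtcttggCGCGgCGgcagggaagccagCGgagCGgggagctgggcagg
intergenic: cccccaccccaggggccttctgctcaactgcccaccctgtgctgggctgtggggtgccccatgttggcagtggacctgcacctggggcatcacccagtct
The CCDC78 window held 16 CG, the TAS1R3 and SLC16A3 windows 8 each and the PTOV1 window 7. The intergenic window held none, at 68.0% GC. Over all members the summit window held a median of 9 CG (quartiles 6 and 13), against 11 (8 and 14) in the 7440 Pol II peaks of 1000 bp to under 3000 bp. Across the whole domain the median GC content was 66.6%, against 68.5% in those narrower peaks. The observed over expected CpG ratio, which is the CG count divided by the count its C and G content would give, had a median of 0.495 in domains and 0.764 in the narrower peaks.

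Width chose the members and is given as a description. It ran from 3004 to 22401 bp, with quartiles of 3326, 3886 and 4922 bp. The deposited fold of Pol II over background, the authors' own value for each peak, had a median of 53 in domains (range 7.93 to 161), against 45.0 in peaks of 1000 bp to under 3000 bp and 6.05 in peaks under 1000 bp. A domain was not always a strong peak, since the lowest folds overlapped those of peaks under 1000 bp. Just inside the threshold stood a domain of 3004 bp within TMC6, with a fold of 8.03, and one of 3004 bp between genes on chromosome 2, with a fold of 15.5. Just outside it stood a peak within BCL9L, the next below in width, with a fold of 25.3, and one of 2995 bp over the 5′ end of MROH6, with a fold of 72.4. Domains had close neighbours. The next Pol II peak lay a median of 132 bp away, and within 1 kb for 95.2% of domains, against 490.0 bp and 58.9% for peaks of 1000 bp to under 3000 bp.

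FASN, which encodes fatty acid synthase, lay under the widest domain, at chr17:80037936-80060336. This peak of 22401 bp had a fold of 128, began 4166 bp upstream of the FASN 5′ end and reached nearly to its 3′ end. Larp7, Hexim1 and Cdk9 peaks covered 100.0% of it and KAP1 peaks covered 90.1%. Plectin (PLEC), a large linker of the cytoskeleton, held 3 separate domains of 18078, 16069 and 7134 bp, which together came to 41281 bp. The domain of 14278 bp at chr1:1262435-1276712 held the whole of TAS1R3, a taste receptor gene, and parts of CPTP and DVL1. SLC16A3, a lactate exporter gene, had a domain of 13509 bp at chr17:80192109-80205617 and another of 5469 bp. AJM1 and PHPT1 lay wholly inside a domain of 12261 bp on chromosome 9. CDT1, a replication licensing factor gene, and APRT lay wholly inside one of 10814 bp on chromosome 16. TSC2, which encodes an inhibitor of mTORC1 signalling, was covered at its 3′ end by 11257 bp at chr16:2133307-2144563. That summit lay 2001 bp past the TSC2 3′ end, inside the oppositely oriented PKD1, so the signal cannot be told apart between these genes. LONP1, a mitochondrial protease gene, was likewise covered at its 3′ end by 10302 bp with a fold of 149. This summit lay 1516 bp past the LONP1 3′ end, and by canonical transcripts the domain belonged to RPL36, a ribosomal protein gene, and covered both its ends, so here too the signal cannot be told apart between the genes. The highest fold among the members, 161, belonged to a domain of 5391 bp at PTMA (prothymosin alpha). DUSP2 followed at 160.3, TSPAN4 at 158, and GNAS and EGR1 at 157.

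**Figure D1:**
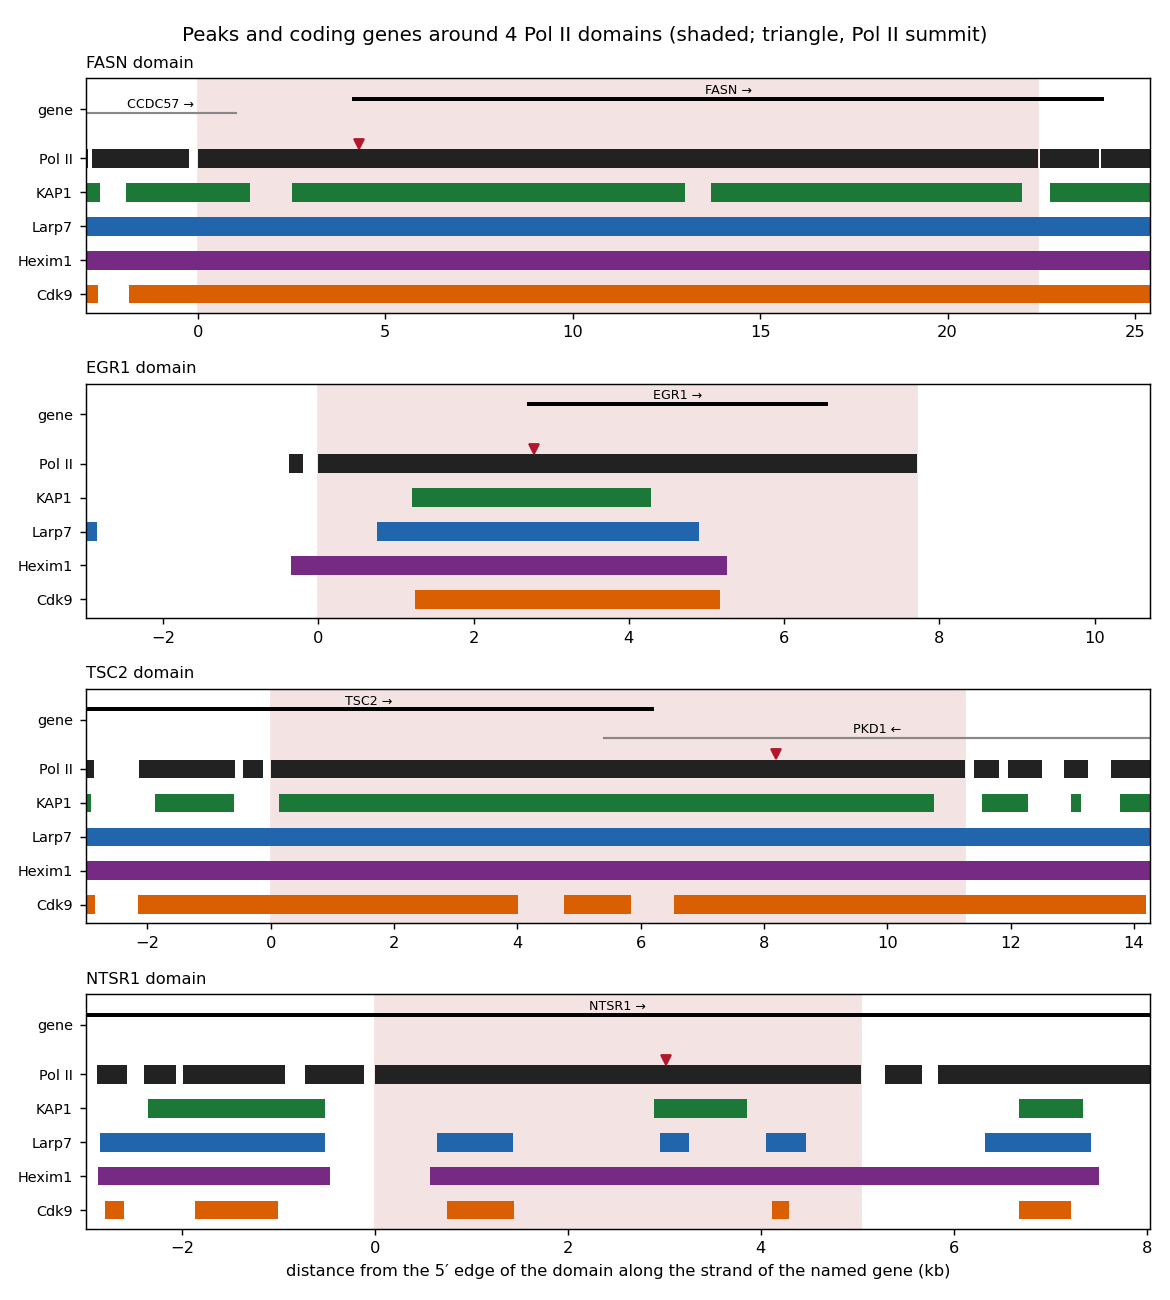
Pol II domains (shaded) at FASN, EGR1, TSC2 and NTSR1 (its widest) with the peaks of all 5 lists, in kb from the 5′ edge of each domain along the strand of the named gene. Black and grey lines are coding genes, arrows give their direction relative to the named gene, and the triangle is the Pol II summit. Peaks of all 4 other proteins ran along nearly all of FASN, stood over the first part of the EGR1 domain, and at NTSR1 KAP1 peaks covered 19.1% of the domain and Cdk9 peaks 17.2%.

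Along genes, the domains fell into 5 places. Each domain was assigned the coding gene whose 5′ end it covered, or else the coding gene it overlapped most, or else a non-coding gene by the same order. It covered both ends of that gene in 41 domains (11.5%, 8.39 to 15.3), the 5′ end only in 104 (29.2%, 24.5 to 34.2), the body only in 137 (38.5%, 33.4 to 43.8) and the 3′ end only in 67 (18.8%, 14.9 to 23.3). The other 7 lay between genes. Among Pol II peaks of 1000 bp to under 3000 bp these shares were 0.739% for both ends, 48.7% for the 5′ end, 43.4% for the body and 2.85% for the 3′ end. A wider interval reaches an end more easily, so the place of the summit alone, which has the same size in every peak, was also counted. It lay within 1 kb of a coding 5′ end in 29.8% of domains (25.1 to 34.8), against 50.3% (49.1 to 51.4) of peaks of 1000 bp to under 3000 bp. It lay within 1 kb of a coding 3′ end, and not of a 5′ end, in 16.6% of domains (12.9 to 20.9), against 6.49% (5.94 to 7.08). Elsewhere in a coding gene were 47.8% of domain summits and 35.3% of the others. The peaks were also split by distance from chromosome ends, a split made with the data in view. The 5′ end difference was smaller in both parts than over all peaks. The 3′ end difference was smaller away from chromosome ends than near them. Over 5 Mb from an end, 49.5% of domain summits (38.8 to 60.1) lay at a 5′ end, against 58.7% (57.4 to 60.1), and 8.79% (3.87 to 16.6) lay at a 3′ end, against 5.05% (4.46 to 5.69), and these intervals overlap. Within 5 Mb of an end the shares were 23% (18.1 to 28.6) at a 5′ end, against 32.6% (30.7 to 34.5), and 19.2% (14.7 to 24.5) at a 3′ end, against 9.5% (8.36 to 10.7).

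**Figure D2:**
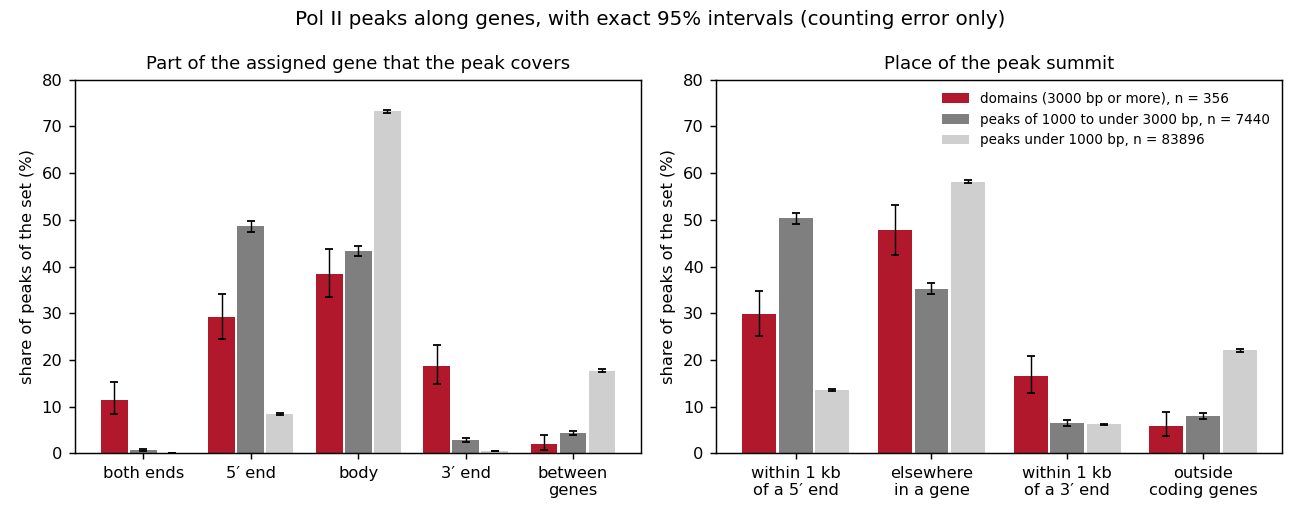
Share of Pol II peaks in each place along genes (left, by what the peak covers; right, by the summit alone), for domains, peaks of 1000 bp to under 3000 bp and peaks under 1000 bp. Bars are shares in percent and whiskers exact 95% intervals. Domains had the highest share of the 3 width classes over both gene ends (11.5%) and at 3′ ends (18.8% covered, 16.6% by summit).

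The size of the body class depends on the annotation. A start of another transcript of the same gene lay inside 87 of the 137 body domains. By the canonical transcript of each gene, a choice made with the data in view, 115 domains lay in a body, 114 at a 5′ end, 75 at a 3′ end, 41 over both ends and 11 between genes. The domains at ACTB, ACTG1, PTMA and GNAS were body domains by the full gene and 5′ end domains by the canonical transcript. With the ends of any transcript, 8.43% of domains were left in a body and 49.2% covered both ends.

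A domain over both ends holds the whole gene, so short genes and overhangs on both sides follow from the definition of this class. The median gene length there was 2272 bp (78 to 6559). These domains started a median of 806 bp upstream and ended a median of 1677 bp past the 3′ end, and their median fold was 83.2. The 5′ end domains were nearly as strong, with a median fold of 81.6, and their summit lay a median of 112 bp into the gene. Body domains were the weakest of the 4 classes on genes, with a median fold of 32.5, and their summit lay at a median of 71.9% of the gene's length. In the 3′ end domains the median fold was 46.3. They ran a median of 1654 bp past the annotated 3′ end, and the summit itself lay past it in 23 of 67. The 306 genes assigned a domain included 298 coding genes. In all, domains touched 422 coding genes, 43 of them lay wholly inside 1, and 120 domains touched more than 1 coding gene. Coding genes with a domain were short, with a median of 13571 bp against 30836 bp for all coding genes with a Pol II peak within 1 kb of the 5′ end, while the median number of exons in the canonical transcript was 9 in both. Of the genes, 37 carried several domains. NTSR1, a neurotensin receptor gene, carried 4, and PLEC, BRSK2, ZNF469 and LAMA5 carried 3 each.

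Most domains stood near chromosome ends. A total of 265 of 356 (74.4%, 69.6 to 78.9) lay within 5 Mb of the end of their chromosome, against 32.4% (31.3 to 33.5) of Pol II peaks of 1000 bp to under 3000 bp and 29.8% of all Pol II peaks. These stretches make up 7.64% of the autosomes. The median distance from an end was 1.71 Mb for domains and 15 Mb for peaks of 1000 bp to under 3000 bp. The share was 84.7% of body domains, 86.6% of 3′ end domains and 70.7% of domains over both ends, but 54.8% of 5′ end domains. Chromosome 19 held 63 domains and chromosome 16 held 48, of which 47 were near an end, while chromosomes 15 and 18 held 1 each. All 5 lists were denser near ends: Pol II peaks covered 6.04% of the bases there and 1.05% elsewhere, Cdk9 peaks 10.9% and 2.03%, KAP1 peaks 7.91% and 1.06%, Hexim1 peaks 20.3% and 5.27%, and Larp7 peaks 18.4% and 3.93%. The part of this density in the coverage values below was not tested.

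The 4 other proteins had peaks on almost every domain. KAP1 overlapped 351 of the 356 (98.6%, 96.8 to 99.5), against 59.5% of all autosomal Pol II peaks. Larp7 overlapped 355, against 82.7% of all Pol II peaks, Hexim1 all 356, against 88.7%, and Cdk9 354, against 68.5%. All 4 overlapped 350 domains (98.3%, 96.4 to 99.4), against 54.2% of all Pol II peaks and 94.6% of those of 1000 bp to under 3000 bp. Since a wide interval is easily touched, the share of each domain's bases under peaks says more. KAP1 had a median of 83.1% (quartiles 61.9 and 96.5), Cdk9 92.9% (75.1 and 99.4), Larp7 100.0% (94.4 and 100.0) and Hexim1 100.0% (98.6 and 100.0). In Pol II peaks of 1000 bp to under 3000 bp these medians were 85.4%, 90.1%, 97.7% and 100.0%. KAP1 covered at least 50% of 302 domains (84.8%), against 53.6% of all Pol II peaks, and of 84.8% of the peaks of 1000 bp to under 3000 bp. Larp7 did so for 347 (97.5%), against 79.9% of all Pol II peaks and 95.5% of those of 1000 bp to under 3000 bp. Hexim1 did so for 351 (98.6%), against 86.5% and 98.0% in the same order, and Cdk9 for 323 (90.7%), against 62.7% and 90.5%. The domains were thus close to the peaks of 1000 bp to under 3000 bp by this measure. Hexim1 covered the whole of 242 domains (68.0%), against 65.2% of all Pol II peaks, Larp7 199 (55.9%), against 55.8%, Cdk9 84 (23.6%), against 29.6%, and KAP1 53 (14.9%), against 20.8%. These shares were near that of all Pol II peaks for Hexim1 and Larp7 and below it for Cdk9 and KAP1. A narrow peak is more easily covered whole, and most Pol II peaks are narrow. Among peaks of 1000 bp to under 3000 bp the shares were 57.1% (Hexim1), 40.1% (Larp7), 20.4% (Cdk9) and 13.3% (KAP1). Domains were higher than these for all 4, with overlapping intervals for Cdk9 and KAP1.

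**Figure D3:**
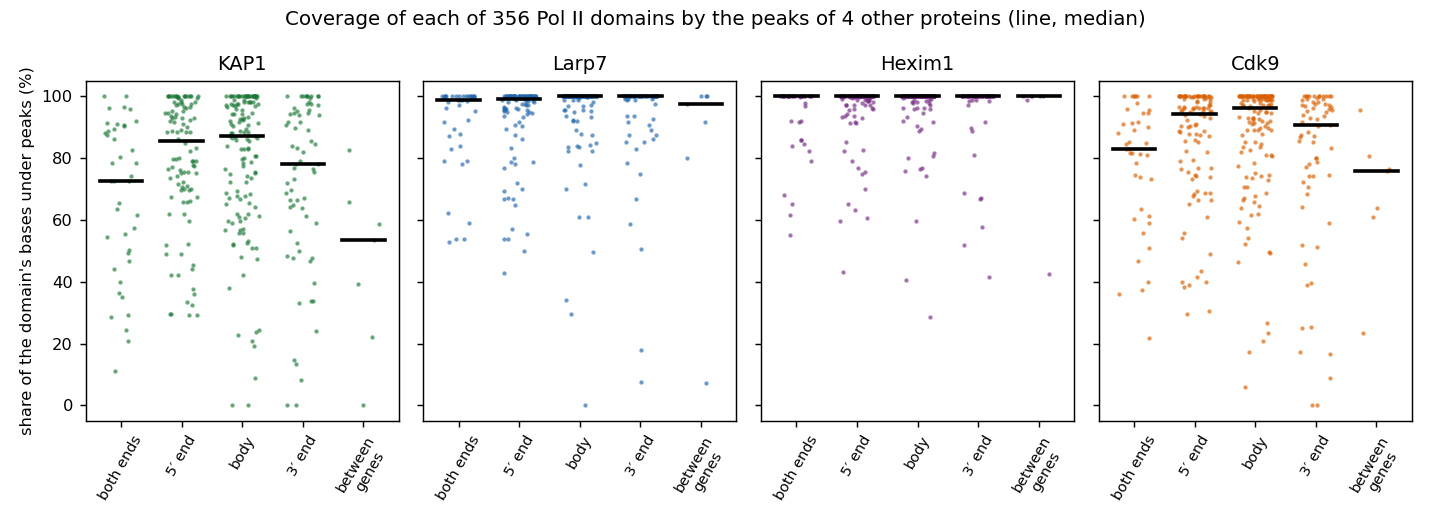
Each point is 1 of the 356 Pol II domains, and its height is the percentage of the domain's bases under KAP1, Larp7, Hexim1 or Cdk9 peaks, by place along the gene, with the median as a line. Hexim1 and Larp7 medians lay at or near 100.0% in each place on genes, while KAP1 medians ran between 72.7% and 87.2% there.

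Pooled over the domains, coverage differed by zone of the assigned gene. KAP1 peaks covered 83.9% of domain bases within 1 kb of the 5′ end of the assigned gene, 79.4% of those in its body and 67.2% of those within 1 kb of its 3′ end. For Cdk9 these shares were 87.5%, 87.1% and 77.2%, for Larp7 95.5%, 94.6% and 90.8%, and for Hexim1 97.6%, 97.0% and 93.4%. The bases more than 1 kb upstream of the 5′ end were as low as the 3′ zone, with 65.4% for KAP1, 77.1% for Cdk9, 89.2% for Larp7 and 93.3% for Hexim1. Taken per domain, the median Cdk9 coverage was 100.0% in the 5′ zone, 97.8% in the body and 100.0% in the 3′ zone. The KAP1 medians were 96.8%, 91.5% and 70.0%. Each zone is held by a different set of domains, so neither the pooled shares nor these medians compare zones within a domain. In the 47 domains that held both end zones, the median KAP1 coverage was 66.9% in the 3′ zone and 95.3% in the 5′ zone, lower in the 3′ zone in 26 domains and higher in 14. Cdk9 there had medians of 78.7% and 92.5%, lower in the 3′ zone in 22 domains and higher in 13. Larp7 and Hexim1 had medians of 100.0% in both zones. Larp7 was lower in the 3′ zone in 15 domains, higher in 8 and equal in 24, and Hexim1 lower in 10, higher in 4 and equal in 33. Along domains scaled to 20 bins, Cdk9 was level inside, with 86.9% in bin 4 and 87.7% in bin 17, and lower in the bins at both edges, 61.8% in the first and 62.9% in the last. Coverage did not stop at the domain edges. In the 5 kb before the 5′ edge KAP1 peaks covered between 37.7% and 41.9% of the bases of each 1 kb bin, and in the 5 kb after the 3′ edge between 37.0% and 48.5%. For Hexim1 these ranges were 66.3% to 75.3% and 70.7% to 77.4%. Other Pol II peaks also lay in these flanks and covered 41.0% to 49.3% and 49.2% to 60.2% of the bases of each bin.

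**Figure D4:**
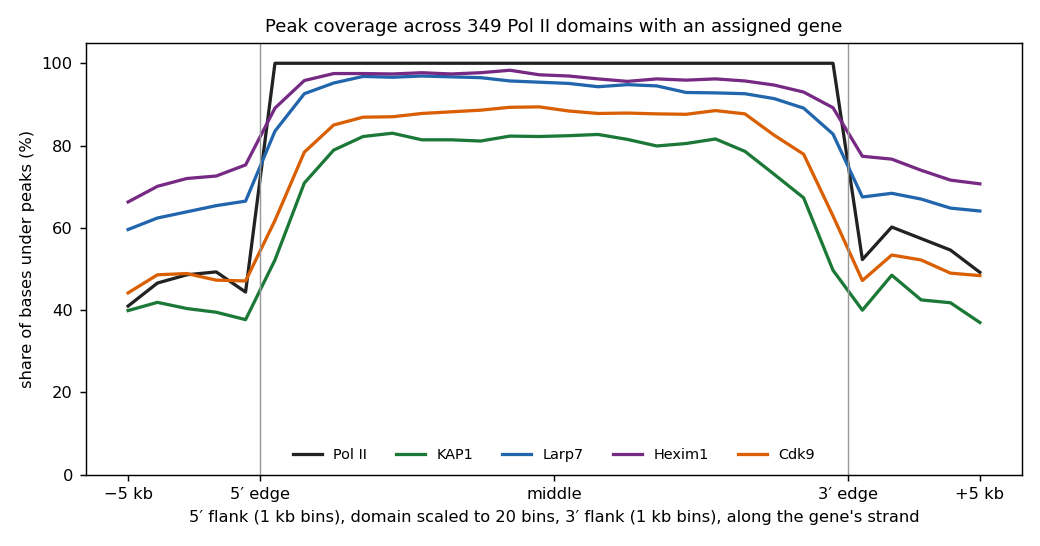
Share of bases under the peaks of each list across the 349 Pol II domains with an assigned gene, along the gene's strand, with each domain scaled to 20 bins and 5 kb on either side in 1 kb bins. Pol II is 100.0% inside by construction; KAP1 ran between 49.7% and 83% inside and was lowest in the bins at the edges.

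A stricter set of factor peaks was also counted, and its size differed between the proteins. Of peaks with a deposited −log10 q of at least 5 KAP1 had 8542, Larp7 had 33986, Hexim1 had 45446 and Cdk9 had 5294. They were counted in windows of 500 bp at the Pol II summit, which have the same width in all peaks. KAP1 was in 19.7% of domain windows (15.7 to 24.2), against 36.0% (35.0 to 37.2) of windows of peaks of 1000 bp to under 3000 bp. Larp7 was in 91.0% (87.5 to 93.8), against 79.3% (78.3 to 80.2). Hexim1 was in 98.6%, against 96.0%, and Cdk9 in 20.5%, against 23.8%. With the full lists nearly all windows held a peak. KAP1 was in 96.1% of domain windows, against 93.9%, Larp7 in 99.4%, against 98.0%, and Hexim1 in 99.4%, against 99.2%, and the intervals of these differences included 0 (−0.476 to 4.01, −0.0438 to 2.04 and −1.21 to 0.804 percentage points). Cdk9 was in 98.6%, against 96.3%, with an interval of 0.429 to 3.37. The lower KAP1 share in domains was thus seen with the stricter peaks and not with the full list, and with equal lists of 20000 peaks it was 53.4%, against 62.1%.

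The place along the gene moved with these values. With the stricter peaks, KAP1 was in 45 of 104 summit windows of 5′ end domains (43.3%, 33.6 to 53.3) and 14 of 41 of domains over both ends (34.1%), but in 10 of 137 of body domains (7.30%, 3.56 to 13) and 1 of 67 of 3′ end domains (1.49%, 0.0378 to 8.04). In peaks of 1000 bp to under 3000 bp the KAP1 shares were 52.1% at 5′ ends (50.4 to 53.7), 22.9% in bodies (21.5 to 24.4) and 6.60% at 3′ ends (3.66 to 10.8). Over both ends it was 25.5% (14.7 to 39), the one place where the KAP1 share was higher in domains. The intervals of domains and narrower peaks overlap there, at 5′ ends and at 3′ ends, and are apart only in bodies. Cdk9 had the same order in domains, with 35.6% at 5′ ends, 34.1% over both ends, 10.2% in bodies and 8.96% at 3′ ends. In the narrower peaks these shares were 34.1%, 20.0%, 15.2% and 5.19%, so Cdk9 was higher in domains in 3 of the 4 places, with overlapping intervals in all 4, although lower over all domains. Larp7 had no such gradient, with 89.4%, 90.2%, 93.4% and 91.0% in the same order, and Hexim1 was in at least 97.0% of windows in each place. Within 5 Mb of a chromosome end KAP1 was in 16.2% of domain windows, against 25.8% of the narrower peaks there, and farther away in 29.7%, against 41.0%. Cdk9 was in 14.3%, against 15.8%, near an end and in 38.5% (28.4 to 49.2), against 27.7% (26.5 to 29), farther away, where the 2 intervals just overlap. Above the median fold of domains KAP1 was in 33.7% of domain windows, against 57.3% of the narrower peaks of that strength. Larp7 there was in 90.4%, against 80.8%. These splits were made with the data in view. Depth, the peak caller's settings and antibody strength are not known for these libraries, so the levels cannot be ranked between proteins.

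**Figure D5:**
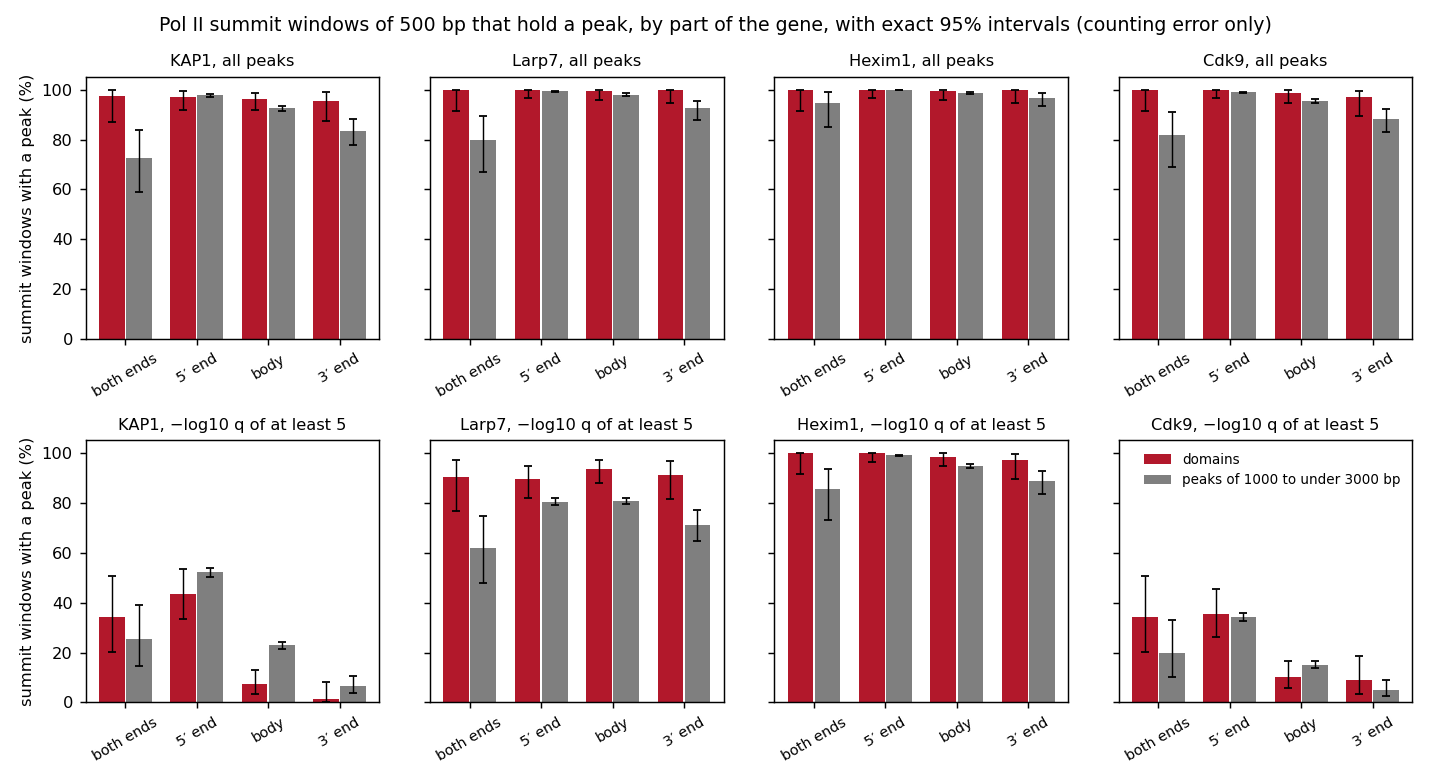
Share of 500 bp Pol II summit windows that hold a peak of KAP1, Larp7, Hexim1 or Cdk9, by place along the gene, for domains and for Pol II peaks of 1000 bp to under 3000 bp, with exact 95% intervals. The top row uses all peaks and the bottom row those with a −log10 q of 5 or more; there KAP1 was in 43.3% of 5′ end domains and 1.49% of 3′ end domains while Larp7 was in 89.4% and 91.0%.

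GC content moved with coverage. Split into 3 equal groups by GC content, the domains of the lowest group (46.8% to 65.2%) had a median KAP1 coverage of 55.4%, those of the middle group 91.0% and those of the highest group 92.3%. Over the 356 domains, which share 1 library per protein, Spearman's rho between GC content and coverage was 0.621 for Cdk9, 0.607 for KAP1, 0.383 for Larp7 and 0.352 for Hexim1. Peaks of 1000 bp to under 3000 bp had median KAP1 coverage of 52.4%, 84.0% and 90.0% over the same ranges of GC. The part of base composition in the coverage was not tested. Pol II fold went the other way, with a rho of −0.273 with KAP1 coverage, and the domains above the median fold had a median KAP1 coverage of 75.1%.

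No KAP1 peak lay on 5 domains. Among these, RCC1, the gene of the exchange factor for Ran, had 4021 bp with a Pol II fold of 74.8 and the lowest GC content of all domains, 46.8%. It was also the only domain without Larp7, and Hexim1 covered 28.6% of it and Cdk9 6.04%. MCRIP2 had 3216 bp with 78.4% under Larp7, 100.0% under Hexim1 and 39.1% under Cdk9. RPL13A, a ribosomal protein gene, had 3122 bp with 34.2%, 40.6% and 26.6% in the same order, and the domain of 3004 bp between genes on chromosome 2 also lacked KAP1. PDLIM7, with 3079 bp and a fold of 10.0, had no Cdk9 peak. KAP1 coverage was low at NTSR1 as well, whose 4 domains had 19.1%, 20.9%, 22.8% and 33.1% of their bases under KAP1 peaks. The other proteins varied there, with 29.7% to 100.0% for Larp7, 59.8% to 100.0% for Hexim1 and 17.2% to 77.3% for Cdk9. GC content of these 4 domains ran from 58.0% to 62.6%, within the lowest GC group.

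Among gene lists, immediate early genes, which are transcribed within minutes of a stimulus, had a domain in 9 of 36, against 1.55% of all autosomal coding genes and 2.13% of coding genes with Pol II at the 5′ end. EGR1, a zinc finger transcription factor gene, had 7713 bp at chr5:137798450-137806162, with a fold of 157, over the whole gene. KAP1 covered 39.9% of it, Larp7 53.8%, Hexim1 68.2% and Cdk9 51.0%. IER2 had 6680 bp with 35.1% under KAP1 and 100.0% under Hexim1. ZFP36L1, which encodes a binder of AU-rich mRNAs, had 4218 bp with 45.6% under KAP1. The AP-1 subunit genes FOSB, JUNB and JUND had 3647, 3451 and 3399 bp, the phosphatase genes DUSP2 and DUSP4 had 3561 and 3545 bp, and KLF4 had 3368 bp. KAP1 coverage in these 6 ran from 52.0% at FOSB to 93.1% at KLF4. Over all 356 domains, Spearman's rho between width and KAP1 coverage was −0.0563.

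Housekeeping lists were mixed. Ribosomal protein genes had a domain in 4 of 75, and KAP1 covered 28.6% of the one at RPS15 and 33.8% of the one at RPL13. Actin and tubulin genes had one in 3 of 18: ACTG1 with 5586 bp, TUBB4B with 5231 bp and ACTB with 3978 bp. Glycolysis genes had one in 2 of 16, PFKL and GAPDH, and KAP1 covered 29.4% of the GAPDH domain of 4158 bp. EEF2 was the only one of 20 translation factor genes, HNRNPF the only one of 24 splicing factor genes and NEAT1, a nuclear non-coding RNA, the only one of 18 abundant non-coding RNA hosts. NELFA, a subunit of the pausing factor NELF, was the only one of 32 genes of elongation, the 7SK complex and KAP1. No domain was assigned to any of 18 heat shock and chaperone genes, 21 p53 targets, 57 replication-dependent histone genes or 17 epithelial markers, and 1 of 13 endothelial markers had one, EGFL7, with 5816 bp. At the background of 1.55% of coding genes, a count of 0 or 1 in lists of this size says nothing particular about them. CCND1, the cyclin D1 gene, chosen after its values were seen, had 2 domains that nearly abut: one of 6989 bp over the 5′ end with 80.2% under KAP1, and one of 3788 bp in the body with 23.7% under KAP1 and 99.9% under Larp7.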

How the data were processed

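The submitters' processing notes name Bowtie 1.1, MACS2 and the hg19 build. The sources used here do not give the MACS2 version or settings, the control library or the handling of duplicate reads. Each deposited list belongs to 1 library: narrow peaks with a summit for Pol II, broad peaks for KAP1, Larp7, Hexim1 and Cdk9. The fold in column 7 is the authors' ratio over background, and columns 8 and 9 are the authors' −log10 p and −log10 q. The deposited score was not used. Folds were not compared between lists.

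Peaks on chromosomes 1 to 22 were kept. Genes came from GENCODE release 44 on GRCh37. Coverage is the share of a domain's bases under the merged peaks of a list, overlap is 1 bp or more, and zones and windows are as stated with each value. Scripts used Python 3.11.15, pandas 2.3.3, numpy 2.4.6, scipy 1.17.1 and matplotlib 3.10.9 and were tested on simulated intervals. Domains were compared with Pol II peaks of 1000 bp to under 3000 bp. The members, gene lists, named genes and tests were chosen with earlier results of these data known. Named genes were the 12 widest domains, the 8 of highest fold, the 5 widest of each place and without each factor, list members, those next to the threshold and genes with most domains, and some of these are not named. The alternatives were peaks of −log10 q of at least 5, 20000 peaks per list, other overlaps, widths, windows, zones and gene ends, and merged Pol II peaks. Some results are not reported here.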

Additional observations from a re-analysis of the deposited data

How the results depend on the processing

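No paired analysis was possible because each antibody has 1 library. Under 20 alternatives, 104 recomputed main values stayed within the 95% interval of the reported value or near its count, 89 moved farther and 8 changed sign. A width of at least 2000 bp gave 1182 domains, of 4000 bp 162, and merging Pol II peaks within 1 kb gave 3051; list members with a domain were 74 and 11 at the first 2 of these. At 2000 bp the places were 4.82% both ends, 39.6% 5′ end and 11.3% 3′ end, and at 4000 bp 19.1%, 19.8% and 25.3%, with 0% between genes. With non-coding genes on equal terms 18.5% covered both ends, 32.9% a body and 12.9% a 3′ end. Ends within 500 bp gave 32.9% body and 25.0% 3′ end. Any transcript's ends gave 8.43% body and 49.2% both ends, and canonical transcripts 32.3% body. Over 5 Mb from a chromosome end 51.6% were at a 5′ end, 23.1% in a body and 9.89% at a 3′ end. Compared genes had a median of 27567 bp when all coding genes were taken.

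Overlap with stricter peaks (−log10 q of at least 5) was 22.8% for each of KAP1 and Cdk9, 92.4% for Larp7, 98.9% for Hexim1 and 12.4% for all 4. With 20000 peaks per list it was 58.7%, 69.9%, 66.9%, 87.1% and 35.7% in that order, and with at least 50% covered 84.8%, 90.7%, 97.5%, 98.6% and 83.1%. In merged domains KAP1 overlapped 92.1%, Cdk9 96.3% and all 4 91.4%, and over 5 Mb from an end KAP1 95.6% and all 4 95.6%. Median coverage fell to 0% for KAP1 and 0% for Cdk9 with stricter peaks, and was 36.2%, 96.6% (Larp7) and 73.8% (Cdk9) with 20000 peaks. It was 50.9% (KAP1), 61.5% (Cdk9), 87.4% (Larp7) and 94.7% (Hexim1) in merged domains, 69.7%, 80.8%, 95% and 99.0% in that order over 5 Mb from an end, and 99.9% for Larp7 at 2000 bp.

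Stricter peaks covered 36.0%, 9.22% and 5.89% of the 5′ zone, body and 3′ zone for KAP1, 31.0%, 12.8% and 7.14% for Cdk9, and 87.5%, 89.9% and 84.9% for Larp7. With 20000 peaks KAP1 had 62.1%, 43.5% and 29.5%, Cdk9 73.3%, 55.4% and 46.0%, Larp7 63.4%, 67.7% and 59.7%, and Hexim1 84.6% (body) and 75.8% (3′ zone). The lower pooled share in the 3′ than in the 5′ zone thus held for KAP1 and Cdk9 under both. These zones are held by different sets of domains, and the comparison within the same domains is given for the full lists only.

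Summit windows of domains held stricter peaks in 19.7% (KAP1), 91.0% (Larp7) and 20.5% (Cdk9), and peaks of the 20000 lists in 53.4%, 65.4% and 66.3%, and 87.1% (Hexim1). Domains minus peaks of 1000 bp to under 3000 bp was −16.4 percentage points for KAP1 and −3.33 for Cdk9 with stricter peaks, both of the opposite sign to the full lists, and 11.7 for Larp7 and 2.63 for Hexim1. With 20000 peaks it was −8.75 and −0.173 for KAP1 and Cdk9, and 12.4 and 6.15 for Larp7 and Hexim1. Above the median fold of domains, with the full lists, it was −1.13 (KAP1), −0.00349 (Cdk9), −0.190 (Larp7) and −0.500 (Hexim1). With stricter peaks above that fold, KAP1 was in 33.7% of domain windows, against 57.3%, and Cdk9 in 37.1%, against 40.3%. Larp7 there was in 90.4%, against 80.8%, and Hexim1 in 99.4%, against 99.6%. The cause was not tested. Unknown depth limits all of these.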
